A study of Mus musculus with 10 samples.

Results

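The gluconeogenesis enzymes examined here are the products of 7 genes, taken by symbol from their place in the pathway, with earlier results of these data known: Pck1 and Pck2 (the phosphoenolpyruvate carboxykinases), Fbp1 and Fbp2 (the fructose-1,6-bisphosphatases), G6pc and G6pc3 (catalytic subunits of glucose-6-phosphatase) and Slc37a4 (the transporter that brings glucose 6-phosphate to that enzyme). All 7 were present among the 24062 genes counted, and all 7 were among the 17632 genes that passed the filter on low counts.

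Gluconeogenesis makes glucose from lactate, glycerol and amino acids. It runs most glycolytic reactions backwards, and these enzymes carry the steps at which it must leave the glycolytic route: oxaloacetate is turned into phosphoenolpyruvate, fructose 1,6-bisphosphate loses a phosphate, and glucose 6-phosphate is imported into the endoplasmic reticulum and hydrolysed to free glucose. Liver and kidney are the classical sites, and the small intestine of suckling rodents carries the enzymes as well.

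RNA was sequenced from the jejunum of C57BL/6 mice at postnatal day 5 in 5 libraries labelled wild type (WT) and 5 labelled KSR23+. KSR23 mice carry an IL-23 cassette in the ROSA26 locus behind a floxed stop, crossed with K14-cre, so that the cytokine is made in keratinocytes and other cells in which the K14 promoter has been active. The transgene is thus not aimed at the jejunal epithelium, and the tissue was taken whole. The comparison asks how the neonatal jejunum differs when IL-23 is expressed in this way. No label says whether a library came from 1 animal or from a pool, so that p-values measure the spread between these libraries.

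Gene counts per library summed to between 25.5 and 60.9 M (M, 1e+06). WT libraries held 29.0 ± 2.97 M (SD, n = 5) and those of KSR23 43.2 ± 12.9 M, which was more (two-sided exact permutation test, p = 0.0238). Levels are therefore given as counts per M (CPM) of a library total scaled by TMM, an edgeR factor that corrects for differences in composition; 3 counts, the level taken as a floor, were worth 0.0427 to 0.119 CPM. Replicates 4 and 5 of both groups stood apart in 1 respect: each held the highest or lowest value of its group in only 8.54% to 18.4% of 9737 well measured genes, against 45.7% to 75.6% for each of replicates 1 to 3, where exchangeable libraries would each hold 40%. Because replicates 4 and 5 lay between the others so often, the results are also given for replicates 1 to 3 alone. The study calls the libraries of a group biological replicates, and the labels do not say which animals they came from; if replicates 4 and 5 are not independent of the others, every SD, SE and p-value over 5 libraries may be too small. Sex-linked counts were also unevenly spread. Y-linked genes summed to 6347, 4361, 492, 5831 and 4471 counts in WT replicates 1 to 5 and to 9035, 9, 1, 4330 and 1 counts in KSR23 replicates 1 to 5, so that 3 KSR23 libraries and no WT library were nearly without them. Xist was counted beside Y-linked genes in WT replicates 3 (919 counts) and 5 (167 counts) and in KSR23 replicate 4 (691 counts).

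Of the 7 genes, 4 were lower in KSR23 and none was higher by the likelihood ratio test, the quasi-likelihood test or DESeq2, nor did any but those 4 have an unadjusted p under 0.05. Fbp1 fell 13.6-fold, Pck1 fell 7.70-fold, Slc37a4 fell 2.62-fold and G6pc fell to 51.0% of its WT level, whereas Pck2, Fbp2 and G6pc3 did not pass the test. A gene is said to have risen or fallen where edgeR's likelihood ratio test gave a Benjamini-Hochberg adjusted p under 0.05 over all genes tested. By that rule 18.5% of all genes were called, 8.76% as lower and 9.73% as higher; the same 4 of 7 members were called by the quasi-likelihood F test, which called 15.4% of all genes. DESeq2 called 3644 of the 17632 genes, and 5286 had an unadjusted p under 0.05 in the likelihood ratio test. The median log2 fold change (KSR23 over WT) was -0.97 over the 7 members and 0.03 over all genes. When replicates 4 and 5 were set aside, 2 of the 7 (Fbp1 and Pck1) and 3.36% of all genes passed the likelihood ratio test, and 1 (Fbp1) and 0.812% of all genes the quasi-likelihood test. In whole tissue, fewer cells of a type and less RNA per cell cannot be told apart.

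**Figure D1:**
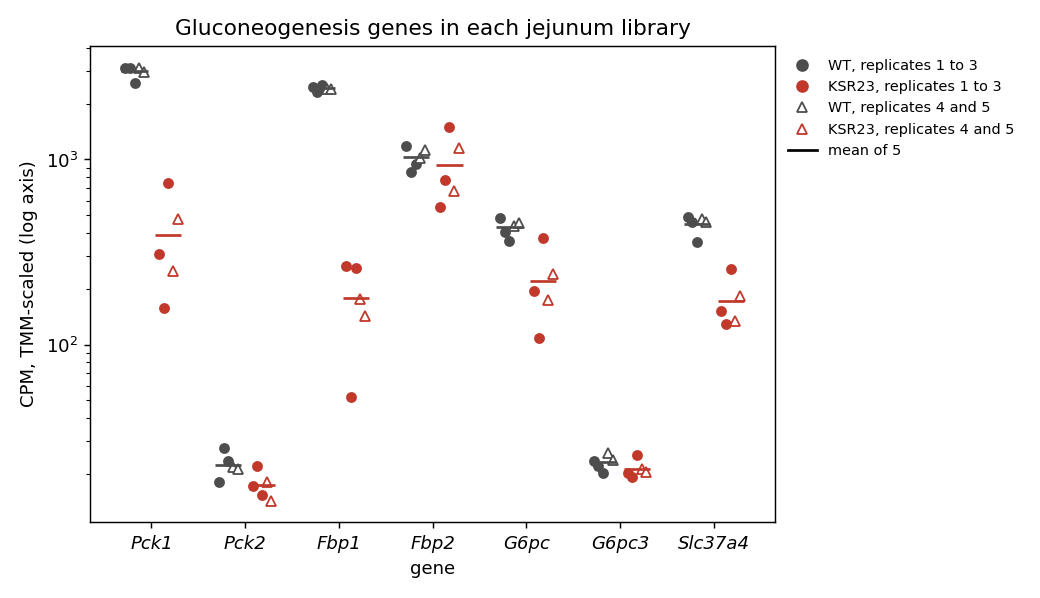
Level of each of the 7 genes in CPM (vertical log axis) in every WT and KSR23 library, with a bar at the mean of the 5 libraries of each group. For Fbp1, Pck1 and Slc37a4 every KSR23 library lies under every WT library, for G6pc the groups touch at 1 library of each, and for Pck2, Fbp2 and G6pc3 the groups overlap.

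The first committed step is carried by Pck1, the cytosolic phosphoenolpyruvate carboxykinase, a gene known for its strong induction by fasting signals through cAMP. Pck1 lies on chr2:173153048-173159273 (mm10, plus strand) and has 10 exons in its principal transcript. The 250 bases before its RefSeq start, chr2:173152823-173153072 (GRCm38.p6, plus strand), are printed 5′ to 3′ because Pck1 is 1 of the 2 genes that fell most. The capitals mark, in order, ATTAAC, the reverse of the HNF1 motif GTTAAT, 192 bases before the start, and TTACGTCA, a variant of the cAMP response element, 93 bases before it:
Pck1: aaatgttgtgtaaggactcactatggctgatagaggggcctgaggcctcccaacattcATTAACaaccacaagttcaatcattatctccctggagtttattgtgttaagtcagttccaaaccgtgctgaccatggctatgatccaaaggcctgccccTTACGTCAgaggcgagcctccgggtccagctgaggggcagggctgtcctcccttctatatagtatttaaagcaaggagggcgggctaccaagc
The variant element was found, on either strand, in 0.447% of 32851 mouse promoter windows of this length, and GTTAAT in 6.43%. These are matches of letters and were not tested for use in this tissue.

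Pck1 stood at 3119, 3138, 2586, 3132 and 2987 CPM in WT replicates 1 to 5, and at 309, 157, 749, 249.6 and 478 CPM in KSR23 replicates 1 to 5. The groups did not overlap: the highest KSR23 library, replicate 3, was still 3.45-fold under the lowest WT library. Over all genes, 6.99% had every KSR23 library below every WT library. The mean went from 2992 ± 235 to 389 ± 233 CPM, so that 13.0% of the WT level remained (log2 fold change -2.94, SE 0.37; adjusted p = 2.01e-11, and 0.000413 by the quasi-likelihood test). Without replicates 4 and 5 its log2 fold change was -2.83 (adjusted p = 0.00124, quasi-likelihood 0.0998; ranges over 21 alternatives 1.01e-18 to 0.0998). In WT jejunum Pck1 was the 25th most abundant of all genes by mean CPM, and in KSR23 the 358th.

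Pck2, the mitochondrial form of the enzyme (chr14:55540266-55551242, plus strand), was a minor transcript throughout. Its levels were 18.1, 27.6, 23.5, 21.8 and 21.3 CPM in WT replicates 1 to 5 and 17.2, 22.1, 15.4, 18.1 and 14.3 CPM in KSR23 replicates 1 to 5. The groups overlapped, and the difference (22.5 ± 3.47 against 17.4 ± 2.98 CPM) did not pass the test (log2 fold change -0.37, SE 0.27, adjusted p = 0.384). The 95% interval of the fold, 0.537 to 1.12, leaves room for a fall but not for one of the size seen for Pck1. The gene overlaps the antisense gene Gm10876, and the library kit does not mark strand, so that reads of both cannot be told apart where they overlap.

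Fructose-1,6-bisphosphatase, the enzyme that opposes phosphofructokinase, is encoded by neighbouring genes. Fbp1, the liver and kidney form, lies on chr13:62864753-62888282 and Fbp2, the muscle form, on chr13:62836877-62858422, both on the minus strand of mm10, with 6330 bases and no annotated gene between them. They share no stretch of 75 bases, the read length, so reads of one could not be placed on the other without mismatches. The 250 bases before each RefSeq start are printed 5′ to 3′ on the minus strand because these neighbours differed most among the pairs of related enzymes. The Fbp1 window is chr13:62888283-62888532 and the Fbp2 window chr13:62858401-62858650 (GRCm38.p6). The capitals mark ATTGG, the reverse complement of the CCAAT box, 124 bases before the Fbp1 start:
Fbp1: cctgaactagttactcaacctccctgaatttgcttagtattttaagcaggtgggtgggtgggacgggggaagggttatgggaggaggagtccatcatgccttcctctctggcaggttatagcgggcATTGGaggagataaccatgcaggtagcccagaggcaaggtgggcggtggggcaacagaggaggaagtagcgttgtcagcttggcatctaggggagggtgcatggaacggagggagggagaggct
Fbp2: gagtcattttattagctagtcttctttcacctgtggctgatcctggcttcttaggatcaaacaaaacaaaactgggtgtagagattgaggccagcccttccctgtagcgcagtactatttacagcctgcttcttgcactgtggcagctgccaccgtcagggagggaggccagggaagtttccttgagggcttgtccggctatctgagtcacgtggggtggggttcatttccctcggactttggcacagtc
CCAAT, on either strand, was in 33.8% of all windows. None of the other 7 motifs searched was in the Fbp1 window and none of the 8 in the Fbp2 window, which says only that these letters are not there. The others were TTACGTCA, GTTAAT, the cAMP response element TGACGTCA (in 1.55% of all windows), the forkhead motif TGTTTAC (3.17%), the nuclear receptor motif AGGTCA (14%), the STAT motif TTCNNNGAA (7.02%) and TATAAA (12.4%).

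Fbp1 was the gene of the 7 that differed most. It stood at 2461, 2311, 2541, 2408 and 2413 CPM in WT replicates 1 to 5, and at 267, 52.0, 259, 176 and 142 CPM in KSR23 replicates 1 to 5. WT libraries were close together, with a coefficient of variation of 3.46%, while those of KSR23 spread 5.13-fold from replicate 2 to replicate 1. The highest KSR23 library was 8.67-fold under the lowest WT library. The mean went from 2427 ± 83.9 to 179 ± 88.8 CPM, which left 7.38% of the WT level (log2 fold change -3.76, SE 0.37; adjusted p = 2.25e-17, and 8e-05 by the quasi-likelihood test). Without replicates 4 and 5 its log2 fold change was -3.63 (adjusted p = 2.9e-05, quasi-likelihood 0.049, the highest over 21 alternatives). Fbp1 was the 34th most abundant gene in WT and the 931st in KSR23. Among 1660 genes with a mean of at least 100 CPM, 11.3% fell, and only 9, Fbp1 among them, had a log2 fold change as low as that of Fbp1, and 12 one as low as that of Pck1.

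Fbp2 did not follow its neighbour. It stood at 1184, 853, 951, 1014 and 1123 CPM in WT replicates 1 to 5, and at 557, 771, 1498.5, 673 and 1148 CPM in KSR23 replicates 1 to 5. KSR23 libraries thus lay on both sides of the WT range. The means were 1025 ± 132 and 929 ± 388 CPM (log2 fold change -0.14, SE 0.30, adjusted p = 0.808), and the 95% interval of the fold ran from 0.60 to 1.37. Without KSR23 replicate 1 the log2 fold change was 0.04.

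The last step is carried by the glucose-6-phosphatase system. G6pc (chr11:101367561-101377903, plus strand), the catalytic subunit of liver, kidney and intestine, was at 484, 406, 364, 439 and 455 CPM in WT replicates 1 to 5 and at 195, 109, 375, 175 and 242 CPM in KSR23 replicates 1 to 5. KSR23 replicate 3 lay above WT replicate 3, and the other 4 KSR23 libraries lay below every WT library. The mean went from 429.5 ± 46.4 to 219 ± 99.5 CPM, 51.0% of the WT level (log2 fold change -0.97, SE 0.32; adjusted p = 0.0186, and 0.0396 by the quasi-likelihood test). This was the least stable of the 4 calls. The adjusted p was 0.0654 without WT replicate 4, 0.0562 without WT replicate 5, 0.0517 without KSR23 replicate 1, 0.0577 without KSR23 replicate 2, 0.0809 without KSR23 replicate 4, 0.158 in a fit that adjusted for Y-linked counts, and 0.569 in replicates 1 to 3 alone (range over 21 alternatives 0.000153 to 0.569), with a negative log2 fold change in every one of them.

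Slc37a4 (chr9:44396852-44402968, plus strand), without which glucose 6-phosphate does not reach the phosphatase, was at 489, 461, 358, 477 and 459 CPM in WT replicates 1 to 5 and at 153, 129, 257, 134 and 183 CPM in KSR23 replicates 1 to 5. The groups did not overlap, with a 1.39-fold gap between KSR23 replicate 3 and WT replicate 3. The mean went from 449 ± 52.1 to 171 ± 52.6 CPM (log2 fold change -1.39, SE 0.27; adjusted p = 8.82e-06, and 0.00175 by the quasi-likelihood test). Without replicates 4 and 5 its log2 fold change was -1.24 and did not pass the test (adjusted p = 0.185; range over 21 alternatives 9.91e-09 to 0.277). The gene holds the annotated microRNA gene Mir7085.

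G6pc3 (chr11:102189620-102194081, plus strand), the catalytic subunit made in most cell types, was at 23.5, 22.1, 20.1, 25.8 and 23.8 CPM in WT replicates 1 to 5 and at 20.2, 19.2, 25.2, 21.4 and 20.5 CPM in KSR23 replicates 1 to 5. The groups overlapped over most of their range. The means were 23.1 ± 2.13 and 21.3 ± 2.33 CPM (log2 fold change -0.12, SE 0.25, adjusted p = 0.812), with a 95% interval of the fold from 0.654 to 1.30.

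Relative to their means, levels spread more widely among KSR23 libraries than among WT libraries for the 4 genes that fell and for Fbp2, which was not called, although the SDs of Pck1, Slc37a4 and Fbp1 in CPM were alike in both groups. In KSR23 the coefficient of variation was 60.03% for Pck1, 49.6% for Fbp1, 45.4% for G6pc, 41.7% for Fbp2 and 30.7% for Slc37a4, and it was 17.1% for Pck2 and 10.9% for G6pc3. Pck1, G6pc and Slc37a4 placed the 5 KSR23 libraries in 1 order, with replicate 3 highest, then replicates 5, 1 and 4, and replicate 2 lowest. For Fbp1 replicate 2 was also lowest, but replicate 1 was just above replicate 3. With library totals alone, without TMM, replicate 2 was still lowest for all 4, and replicate 1 moved above replicate 5 for G6pc and Slc37a4. TMM factors were lowest in KSR23 replicates 3 (0.797) and 5 (0.865), and their part in this order was not tested further.

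**Figure D2:**
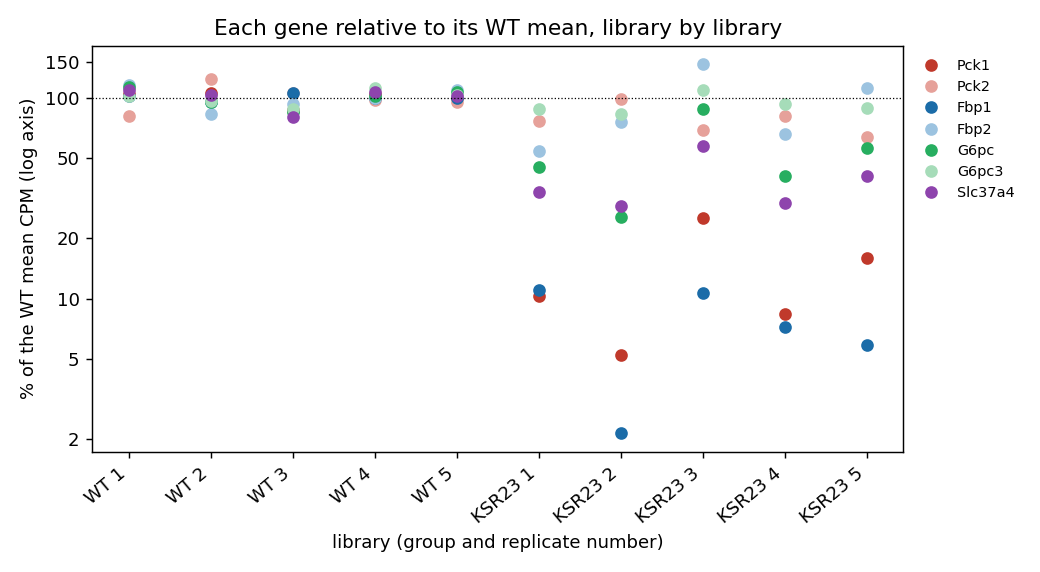
Level of each of the 7 genes in every library as a percentage of its WT mean, on a log axis, with WT and KSR23 libraries marked apart. In KSR23, Fbp1 and Pck1 lie far under the WT mean (7.38% and 13.0% on average), Slc37a4 and G6pc less so (38.1% and 51.0%), Fbp2 and G6pc3 lie on both sides of it, and the Pck2 libraries lie between 63.8% and 98.2% of it.

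Levels of different genes were compared as CPM per kilobase of the principal transcript. In WT the order was Fbp1 (1641 ± 56.7), Pck1 (1124.5 ± 88.4), Fbp2 (757 ± 97.7), Slc37a4 (191 ± 22.2), G6pc (178 ± 19.2), G6pc3 (14.7 ± 1.35) and Pck2 (4.86 ± 0.751), where only Slc37a4 and G6pc were closer than their spread. In KSR23 Fbp2 led at 686 ± 286 CPM per kilobase, Pck1 (146 ± 87.7), Fbp1 (121 ± 60.1), G6pc (90.8 ± 41.2) and Slc37a4 (73.0 ± 22.4) followed within their spread of each other, and G6pc3 (13.5 ± 1.48) and Pck2 (3.77 ± 0.644) stayed last.

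The make-up of each pair of related enzymes shifted accordingly. On the per-kilobase scale, Fbp1 made up 65.5% to 71.3% of the fructose-1,6-bisphosphatase transcripts in WT libraries and 5.81% to 30.5% in KSR23 libraries, so that the pair went from mostly Fbp1 to mostly Fbp2 in all 5. The sum of both fell from 2398 ± 129 to 807 ± 303 CPM per kilobase, a description without a test. Pck1 remained the larger share of its pair, with 99.48% to 99.67% in WT and 92.5% to 98.8% in KSR23. The G6pc to G6pc3 ratio was 12.1 ± 0.875 in WT and 6.54 ± 2.28 in KSR23.

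**Figure D3:**
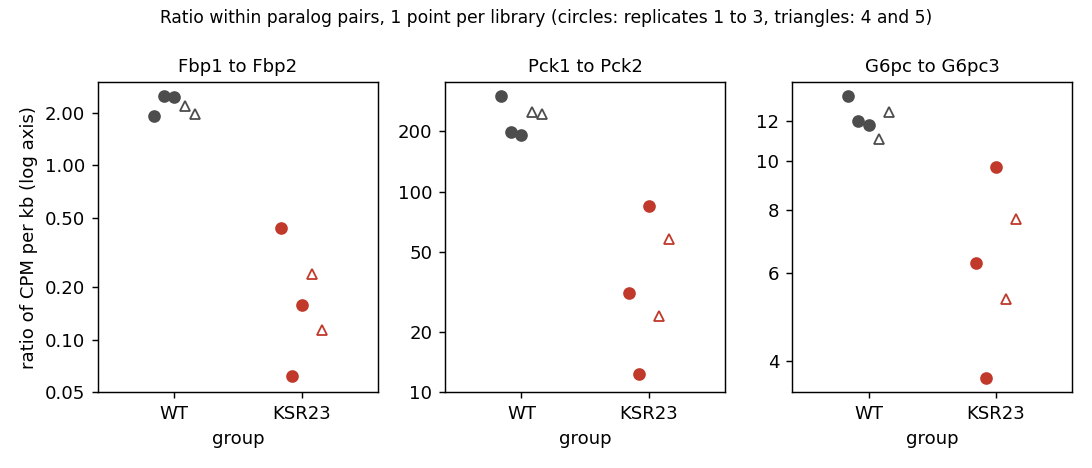
Ratio of CPM per kilobase within each pair of related enzymes (log axes), 1 point per library, with circles for replicates 1 to 3 and triangles for replicates 4 and 5. The ratio of Fbp1 to Fbp2 lies between 1.90 and 2.48 in WT and between 0.0617 and 0.438 in KSR23, that of Pck1 to Pck2 between 191 and 299 in WT and between 12.3 and 84.5 in KSR23, and that of G6pc to G6pc3 between 11.1 and 13.4 in WT and between 3.71 and 9.70 in KSR23.

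The genes around these steps were read from 8 lists holding 83 genes, of which 82 were tested: 21 rose, 4 fell and 57 were not called, where 18.5% of all genes were called. The quasi-likelihood test gave 19 and 4, where it called 15.4% of all genes, and the median log2 fold change was 0.40. Without replicates 4 and 5, 6 rose and 1 fell, where 3.36% of all genes were called. A covariate for Y-linked counts ended the calls of 15 genes named here: Pkm, Hkdc1, Pfkl, Pfkp, Pgk1, Aldoa, Gpd2, Pcx, Ldha, G6pdx, Slc5a1, Ppargc1a, Hnf4a, Hnf4g and Creb1. The enzymes that run the same steps in the glycolytic direction rose in 5 of 10 and fell in none, where 9.73% of all genes rose, with a median of 0.99. Hk2, a hexokinase, rose from 5.53 ± 0.740 to 32.4 ± 7.94 CPM (log2 fold change 2.55, adjusted p = 9.11e-15), and was the 1 gene of the list also called in replicates 1 to 3 alone. Pkm (pyruvate kinase; 244 ± 15.0 to 746 ± 367 CPM, log2 fold change 1.61, adjusted p = 5.08e-05) and Hkdc1 (a hexokinase domain protein; 86.7 ± 28.2 to 239 ± 78.1 CPM, 1.46, adjusted p = 0.000225) followed. The phosphofructokinase subunits Pfkl (86.5 ± 20.5 to 177 ± 51.1 CPM, 1.03, adjusted p = 0.00379) and Pfkp (239 ± 42.6 to 635 ± 225 CPM, 1.41, adjusted p = 8.96e-05) rose as well. All 5 had every KSR23 library above every WT library, as had 7.41% of all genes. Pklr, the pyruvate kinase of liver and red cells, was at 102 ± 23.5 and 136 ± 53.2 CPM without passing the test (0.42, adjusted p = 0.398). Pkm shares 17.8% of its 75-base stretches with other annotated genes, so its count is less certain. The same holds for Pklr (19.9%), G6pdx (10.6%), Gpd2 (5.14%) and Pfkp (4.87%), whereas 6 of the 7 gluconeogenic genes share none and Pck2 shares 0.875%.

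Fructose 2,6-bisphosphate, which activates phosphofructokinase and inhibits fructose-1,6-bisphosphatase, is made and broken down by the PFKFB enzymes, and 2 of the 4 rose and none fell (median 1.26), beside 9.73% of all genes that rose. Pfkfb3, a form with a high ratio of kinase to phosphatase activity, was at 14.6 ± 3.38 CPM in WT and 107 ± 23.2 CPM in KSR23 (log2 fold change 2.88, adjusted p = 5.66e-19). Pfkfb4 went from 82.0 ± 12.1 to 255 ± 77.3 CPM (1.64, adjusted p = 2.4e-07). Both kept their call (likelihood ratio test) without replicates 4 and 5.

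Enzymes that both directions share rose in 3 of 12 and fell in none (median 0.59), beside 9.73% of all genes that rose. Pgam2, the muscle phosphoglycerate mutase, rose from 1.24 ± 0.272 to 8.99 ± 2.04 CPM (log2 fold change 2.85, adjusted p = 1.27e-15), Pgk1 from 55.3 ± 13.1 to 119 ± 42.5 CPM (1.11, adjusted p = 0.00673) and Aldoa, the widespread aldolase, from 463 ± 39.9 to 774 ± 251 CPM (0.74, adjusted p = 0.0406, and 0.0542 by the quasi-likelihood test). Aldoa lost its call in 14 of 21 alternatives. Without replicates 4 and 5 Pgam2 kept its call, and the adjusted p was 0.309 for Pgk1 and 0.527 for Aldoa. Of the 75-base stretches of Pgk1, 52.8% are also in other annotated genes, of which Pgk1-rs7 shares the most, so its count is uncertain.

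Enzymes that bring carbon into the pathway rose in 3 of 15 and fell in 1 (median 0.20), beside 18.5% of all genes that were called, and none of them was called by either edgeR test in replicates 1 to 3 alone. Pcx, pyruvate carboxylase, which makes the oxaloacetate that Pck1 uses, rose from 6.89 ± 0.979 to 16.1 ± 9.43 CPM (log2 fold change 1.22, adjusted p = 0.0144), with an adjusted p of 0.0538 without KSR23 replicate 2 (range over 21 alternatives 0.00242 to 0.447). Ldha, lactate dehydrogenase A, rose from 2303 ± 391.6 to 4871 ± 1756 CPM (1.08, adjusted p = 0.00461), and Gpd2, the mitochondrial glycerol-3-phosphate dehydrogenase, from 108 ± 22.7 to 323 ± 155 CPM (1.57, adjusted p = 0.000605). Genes that decide whether pyruvate is imported and oxidised (pyruvate carriers, pyruvate dehydrogenase and its kinases) had none of 8 called by the likelihood ratio test or the quasi-likelihood test, 1 by DESeq2, and 2 with an unadjusted p under 0.05. Of all 17632 genes, DESeq2 called 3644, and 5286 had an unadjusted p under 0.05.

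**Figure D4:**
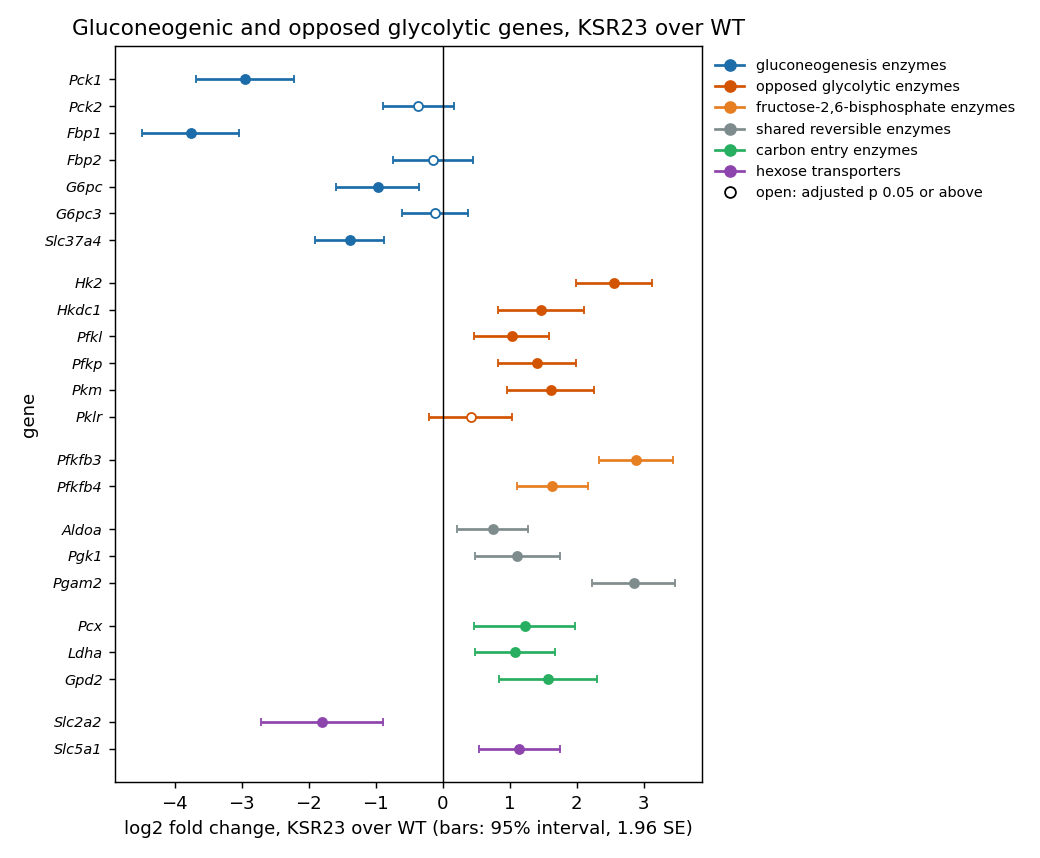
Log2 fold change (KSR23 over WT, horizontal axis) with its 95% interval for the 7 gluconeogenic genes and for genes of the opposed, shared and entry steps and hexose transport, filled where called and open where not. The 4 filled gluconeogenic genes lie to the left of 0, from -3.76 for Fbp1 to -0.97 for G6pc, and the filled enzymes of the opposed glycolytic steps lie to the right, from 1.03 for Pfkl to 2.55 for Hk2.

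Other enzymes that use or supply glucose 6-phosphate rose in 3 of 8 tested and fell in none (median 0.51), beside 9.73% of all genes that rose; Gys2 did not pass the filter. H6pd, which works on the same pool of glucose 6-phosphate inside the endoplasmic reticulum, rose from 36.6 ± 9.06 to 136 ± 25.8 CPM (log2 fold change 1.89, adjusted p = 2.53e-09). G6pdx, its cytosolic counterpart, rose from 46.9 ± 7.33 to 102 ± 34.5 CPM (1.12, adjusted p = 0.00326). Pygb, a glycogen phosphorylase, rose from 22.9 ± 7.35 to 42.8 ± 13.7 CPM (0.91, adjusted p = 0.0481, and 0.0607 by the quasi-likelihood test) and lost its call in 16 of 21 alternatives. Without replicates 4 and 5 the adjusted p was 0.0117 for H6pd (quasi-likelihood 0.0997), 0.274 for G6pdx and 0.593 for Pygb.

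Free glucose and other hexoses cross the enterocyte membranes through a few carriers, and of 3 tested 1 rose and 1 fell (median 0.00), beside 9.73% and 8.76% of all genes. Slc2a2, the GLUT2 carrier through which glucose leaves the enterocyte, fell from 227 ± 52.0 to 64.8 ± 49.1 CPM (log2 fold change -1.81, adjusted p = 0.00212), with every KSR23 library below every WT library, as had 6.99% of all genes. Slc5a1, the sodium-coupled carrier that takes glucose up from the lumen, rose from 904 ± 165 to 1995 ± 715 CPM (1.14, adjusted p = 0.00316), with overlap. Neither was called in replicates 1 to 3 alone.

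Regulators of gluconeogenic transcription rose in 4 of 22 and fell in 2 (median 0.15), beside 18.5% of all genes called. All 6 were without overlap between the groups, as were 14.4% of all genes. Nr0b2, a corepressor of several nuclear receptors, fell from 49.8 ± 10.2 to 5.22 ± 1.21 CPM (log2 fold change -3.26, adjusted p = 1.96e-22). Ppargc1a, a coactivator of Pck1 and G6pc transcription in liver, fell from 22.4 ± 5.94 to 8.60 ± 2.33 CPM (-1.38, adjusted p = 0.000617). Socs3, a feedback inhibitor of cytokine signalling through STAT3, rose from 3.39 ± 2.0 to 69.9 ± 61.1 CPM (4.36, adjusted p = 1.54e-08), with a spread in KSR23 nearly as large as its mean. Hnf4a, a nuclear receptor that acts on many liver and gut genes, rose from 163 ± 42.9 to 343 ± 82.4 CPM (1.08, adjusted p = 0.00281). Hnf4g rose from 108 ± 25.0 to 269 ± 134 CPM (1.31, adjusted p = 0.00323) and Creb1, a factor that binds cAMP response elements, from 18.2 ± 2.39 to 32.7 ± 6.32 CPM (0.85, adjusted p = 0.0145). Of these 6, Nr0b2 and Socs3 kept their call (likelihood ratio test) without replicates 4 and 5.

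Markers of the cells that could be in the samples were read beside these results. Their calls stand beside 18.5% of all genes called, 8.76% as lower and 9.73% as higher, and 15.4% called by the quasi-likelihood test. Markers of the intestinal epithelium were abundant in every library: 8 genes summed to 12117 to 19626 CPM in WT and to 10901 to 15800 CPM in KSR23, with 2 higher (Cdh17 and Krt20), 1 lower (Fabp2) and none at the floor in every library. Some single markers varied far more within a group than the sum. The widest, Alpi, ran from 118 to 3073 CPM in WT and from 97.8 to 3387 CPM in KSR23. Fabp2 made up most of that sum in WT (9965 CPM, against 4366 CPM in KSR23), so the WT sum follows Fabp2 more than the other markers. A fit with the sum as a covariate was among the alternatives, and none of the 4 members that fell lost its call in it. Because Fabp2 itself fell, that fit cannot separate epithelial content from the group. The part of epithelial content in the results was therefore not tested. The 7 hepatocyte markers summed to 2.55 to 9.72 CPM in WT and to 1.81 to 16.5 CPM in KSR23, with 2 that fell, neither of which the quasi-likelihood test called, and 1 that rose, Fgb, which made up most of the highest KSR23 sums (15.2 CPM in replicate 1 and 8.78 CPM in replicate 4); their part in the results was not tested. Striated muscle markers, relevant to Fbp2 and Pgam2, summed to 20.8 to 24.4 and 14.6 to 26.99 CPM with none of 6 tested called (0 also by the quasi-likelihood test and DESeq2, and 0 with an unadjusted p under 0.05) and Myh3 at the floor. Smooth muscle markers summed to 1612 to 3666 and 1681 to 2269 CPM with 1 of 6 lower (0 by the quasi-likelihood test and 1 by DESeq2). An unadjusted p under 0.05 was found for 4 of them, with Acta2, Cnn1 and Tagln at lower and Myh11 at higher levels in KSR23. Pancreatic acinar markers summed to 20.3 to 119 CPM in WT and to 6.16 to 15.9 CPM in KSR23, without overlap. Cela1 made up most of that sum, with a mean of 70.6 CPM in WT and 8.85 CPM in KSR23. All 4 acinar markers that were tested were lower, 3 of them by the quasi-likelihood test (not Cpa1, adjusted p = 0.0595). Only 2 of the 4 reached a mean of 1 CPM in WT, and Pnlip was at the floor. Leukocyte markers summed to 188 to 223 and 128 to 200.1 CPM with 1 of 5 lower (Cd68), and adipocyte markers to at most 0.0734 and 0.199 CPM, with Adipoq, Cfd, Lep and Retn at the floor. The part of the smooth muscle, acinar and leukocyte differences in the results above was not tested.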

How the data were processed

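RNA from whole jejunum of WT and KSR23 mice (5 libraries each) at postnatal day 5 was measured by oligo-dT primed SMART-Seq v4 RNA-seq, a kit that does not mark strand. Per the labels, the authors aligned reads with TopHat2 2.1.0 to mm10 and counted them per gene with HTSeq 0.6.1p1; the deposited values are raw counts, unnormalized, 1 file per library. The tally rows that name no gene stayed out of totals and tests; reads aligned to several places, 8.62 to 17.1 M per library, were in no gene's count.

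Groups follow the genotype labels. Genes with at least 5 counts in at least 1 library were tested with edgeR 4.0.16 in R 4.3.3 (negative binomial likelihood ratio test with Benjamini-Hochberg adjustment, the test the study names, over all 17632 genes). TMM scaling and group as the only term were chosen here, and the study's filter (fewer than 5 counts in any sample) can also be read as 5 counts in every library, which is an alternative; the quasi-likelihood F test stands beside it. Fold changes are KSR23 over WT. The fit was tested on simulated data. Lengths and positions come from GENCODE M21 (longest principal transcript, or the longest transcript for Slc37a4), promoter windows from RefSeq on GRCm38.p6, in which 7 of 7 genes matched. Alternatives were DESeq2 1.42.0, RLE factors, library totals alone, no filter or 5 counts in every library, each library left out, replicates 1 to 3 alone, a replicate block and a covariate for Y-linked counts; the epithelial covariate was added after the data had been seen.

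The members and lists were chosen with earlier results of these data known. All 7 members are named. Of each list, the 3 called genes with the largest absolute log2 fold change are named, and Pcx, Pklr, Pfkl, Hkdc1, Ppargc1a, Hnf4a and Slc2a2 whatever they did. Pfkp, Creb1, Hnf4g and the single markers named in the text were named after their values were seen. Some genes that this rule would name are not reported here.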

Additional observations from a re-analysis of the deposited data

Results flagged for a closer look

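In each group of 5 libraries, the gap between an extreme library and its nearest neighbour was compared with the whole range (Dixon's ratio, 95% critical value 0.71). In 14 groups, the 7 genes in WT and in KSR23, 2 were past that value, where chance would give about 0.7. Both were WT replicate 3, which was low for Pck1 (11.34 on the log2 CPM scale, against 11.54 in the next library) and for Slc37a4 (8.48 against 8.84). Both values remained above every KSR23 library.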

How the results depend on the processing

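Among 21 alternatives, Fbp1 kept its direction and call in 21 (log2 fold change -3.95 to -3.48), Pck1 in 20 (-3.33 to -2.70), Slc37a4 in 19 (-1.58 to -1.24) and G6pc in 13 (-1.25 to -0.75); the calls that were lost were lost as weaker results of the same sign. With replicates 1 to 3 alone, 2 members passed as lower in the likelihood ratio test and 1 in the quasi-likelihood test, and 579 and 140 genes were called in all against 3261; this setting has 3 libraries in a group. With a covariate for Y-linked counts 3 members and 1797 genes were called, and the cause was not tested. Leaving out 1 library at a time left 3 to 4 members and 2370 to 3802 genes called. Members that were not called changed sign in few settings. Fbp2 ran from -0.38 to 0.044 as single libraries were left out (0.044 without KSR23 replicate 1). Fbp2 was at 0.013 with a covariate of summed epithelial markers, of which Fabp2 was the most in WT. G6pc3 was at 0.0090 and 0.0092 in replicates 1 to 3 alone, in the likelihood ratio fit and the quasi-likelihood fit. Without WT replicate 3, Creb1 lost its call (adjusted p = 0.05004), as did Aldoa (0.0938) and Pygb (0.135). Libraries with the same replicate number did not all deviate together (r of -0.74, 0.41, -0.69, 0.36 and 0.49), and 1 of 5 WT libraries correlated best with its own number, so the numbers were not taken as pairs; with a replicate block 4 members were lower and 2202 genes were called, and Aldoa, Creb1, G6pdx, Ldha, Pcx, Pgk1 and Pygb lost their calls. Depth does not limit these genes, since the lowest of them, Pck2, was far above the floor of 3 counts.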

Other observations

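The genes whose levels were most like those of the 4 genes that fell were looked for among 9730 other genes with a mean of at least 5 CPM, by Pearson's r of log2 CPM over the 10 libraries. These values are a description, since all such genes share the difference between the groups, the library depths and the position of replicates 4 and 5. Nearest to Pck1 were Rdh7, Cldn19, Rnf167, BC021614 and Sectm1b (r from 0.992 to 0.997), and to Slc37a4 Rdh7, Scoc, Gstz1, Pbld2 and Nit2 (r from 0.987 to 0.997), so that Rdh7, a retinol dehydrogenase family member, led both. Nearest to Fbp1 were Lect2, Serpina1a, Sdr16c5, Ifit3 and 2010010A06Rik (r from 0.993 to 0.996), and to G6pc Sytl3, Arsg, H2-T3, Timd4 and Cryz (r from 0.989 to 0.995). After the group means had been taken away, those nearest to Pck1 were Fgr, Mettl7b, Sytl3, Cldn19 and Rdh7 (r from 0.976 to 0.981) and among those nearest to Slc37a4 were Cyb561a3, Ddx58, Rdh7 and Selenbp1 (r from 0.974 to 0.984), with Rdh7 again in both. For Fbp1 they were Smek1, Spns3, Dab2, Gm12216 and St3gal1 (r from 0.97 to 0.99), and for G6pc Trim12c, Renbp, Sytl3, Pid1 and Ddx60 (r from 0.986 to 0.991). Sytl3 was in the lists of deviations of both Pck1 and G6pc.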
